A study of Bos taurus with 14 samples.

Results

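The genes described are the phase II conjugating enzymes of calf liver: the glutathione S-transferases (GST), the microsomal glutathione S-transferases (MGST), the UDP-glucuronosyltransferases (UGT) and the cytosolic sulfotransferases (SULT). They were chosen by symbol, as every gene whose symbol begins with UGT1, UGT2, MGST, SULT and a digit, or GST followed by the letter A, K, M, O, P, T or Z and a digit. The rule took 31 of the 17469 genes in the table and used no measured value. Of the 31 genes, 29 reached 1 TPM in at least 7 of the 14 libraries and were tested. TPM gives the level of a transcript per unit of its length, as a share of the whole library. The 2 others were GSTA3, with a mean of 1.21 TPM, and GSTO2, listed at 0 in all control calves and at no more than 0.13 TPM in the supplemented calves.

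Liver was taken at slaughter on day 90 from 14 Holstein bull calves, and 1 poly(A)-selected library was made per calf. The 7 control calves (CON) and the 7 supplemented calves (DCLI) shared the same rearing. All were fed milk replacer at 1.75% of body weight, had starter feed from day 33, went down to 50% of the milk allowance on day 82 and were weaned by day 89. DCLI calves were also given a postbiotic, that is inactivated microbes: dead Lactobacillus ingluviei of the strain CR37, 1 g daily. Calves are named by group and number. Titles mark the second set as treated, which was read as DCLI because the design has no other treated group. The comparison asks whether the supplement bears on liver gene expression.

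Phase II enzymes attach a water-soluble group to a hydrophobic molecule, so that it can leave the body in bile or urine. GSTs attach glutathione to reactive electrophiles such as products of lipid peroxidation, UGTs attach glucuronic acid to bilirubin, steroids and phenols, and SULTs attach sulfate to phenols, hormones, bile acids and other steroids. The liver is the main site of all these reactions, and most roles given here for single enzymes are known from the human or rodent gene.

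Every library summed to nearly the same total, from 999997.1 to 1000000.3 TPM, so depth is unknown and no counting interval can be given. Between 11430 and 12358 genes reached 1 TPM in a library. The 8 hepatocyte markers were detected in every library and summed to between 36890 TPM (DCLI calf 6) and 104000 TPM. Of 4 kidney markers 0 could be matched, and the intestinal transcription factor genes CDX1 and CDX2 and the mucin gene MUC2 were below 1 TPM in all calves. The other intestinal markers were found: LGALS4 ran from 35.6 to 69.6 TPM, VIL1 from 1.67 to 8.61 TPM and FABP2 from 0 to 14.6 TPM. The source of their transcripts was not tested. Markers of macrophages and of T and NK cells were highest in CON calf 2, at 5591 and 334 TPM in sum, against group medians of 2152 and 59.1 TPM in CON and 1753 and 41.0 TPM in DCLI. DCLI calf 6 stood apart in another way: its 20 most abundant genes held 36.4% of all TPM, where the other libraries ranged from 24.9% to 32.3%. In bulk tissue, fewer cells of a type and less RNA per cell cannot be told apart.

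Transcripts of these enzymes were abundant and very unequal. Their summed level ranged from 3856 TPM in DCLI calf 6 to 9315 TPM in CON calf 5, with a mean of 7346 TPM across CON calves (SD 1411) and 6250 TPM across DCLI calves (SD 1311, n = 7 each). Without DCLI calf 6 the DCLI mean was 6649 TPM (SD 850.8, n = 6). GSTA1, an alpha class GST that also acts as a peroxidase and binds bilirubin and bile acids, led with 1762 TPM over all 14 calves. It was the 82nd most abundant of all genes in the table.

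After GSTA1 came the phenol sulfotransferase SULT1A1 (673.7 TPM) and the steroid sulfotransferase SULT2A1 (663.7 TPM), the means of which lay closer together than the spread between calves. MGST1, a membrane-bound transferase and peroxidase, had 445.9 TPM, UGT1A1, which conjugates bilirubin, had 430.8 TPM, and GSTZ1, the maleylacetoacetate isomerase of tyrosine breakdown, had 427.9 TPM. GSTA2 stood at 411.4 TPM, and these 4 means also did not differ beyond their spread. GSTM3 (330.1 TPM), SULT1C4 (306.1 TPM), GSTK1 (243.6 TPM), GSTT2 (212.6 TPM) and GSTA4 (164.9 TPM) completed the 12 most abundant. At the other end, SULT1C3 and SULT2B1 stayed close to the filter, with group means of 1.04 and 1.56 TPM for SULT1C3 and group medians of 1.38 and 1.47 TPM for SULT2B1 in CON and DCLI.

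**Figure D1:**
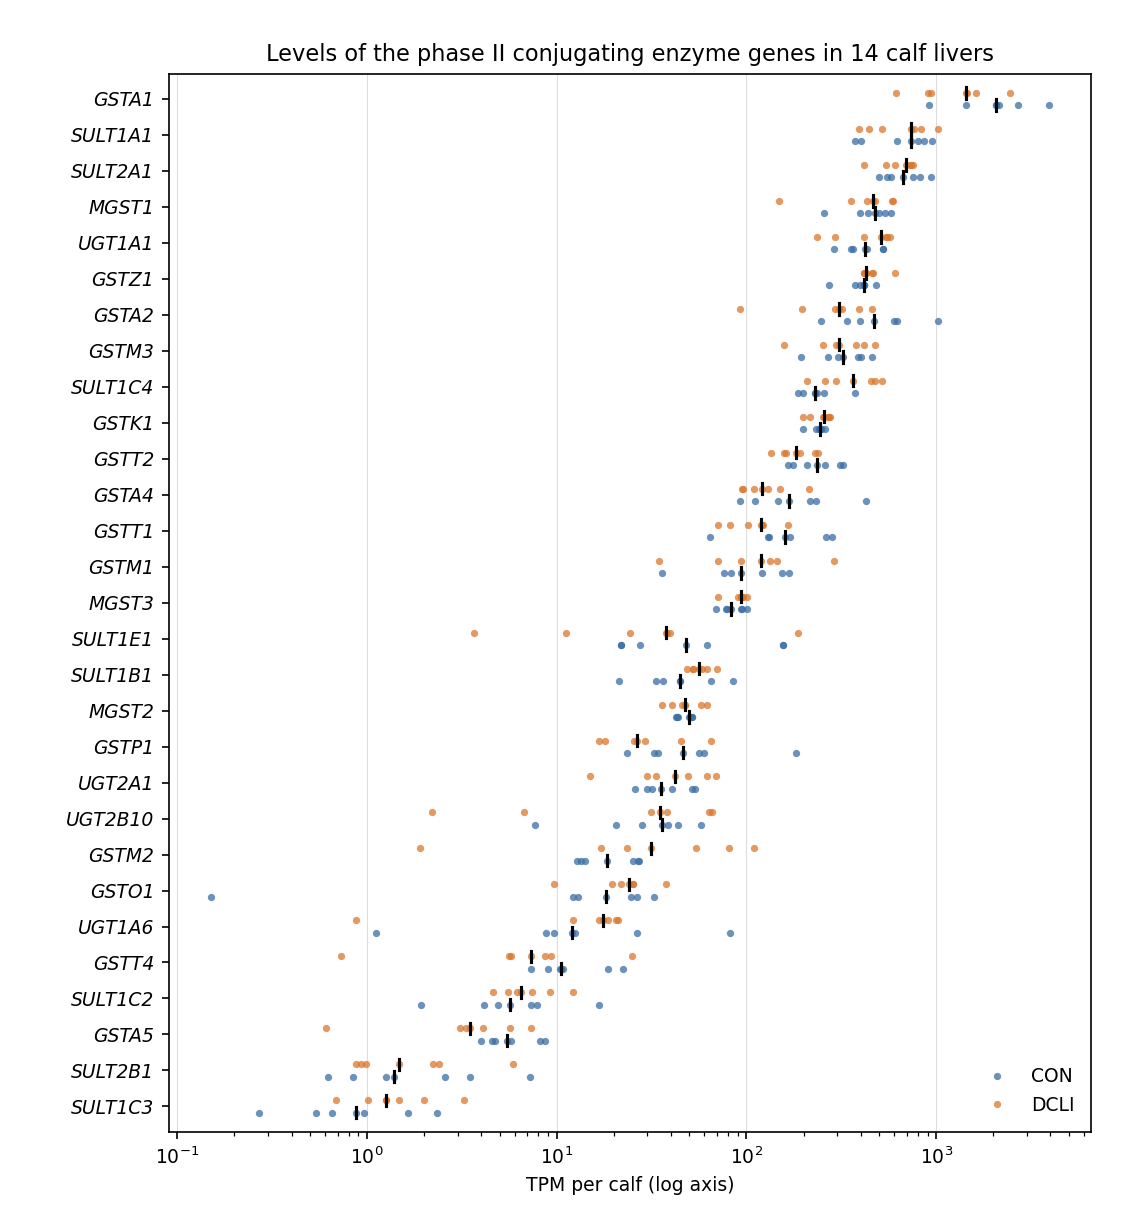
Levels of the phase II genes that were tested, in TPM on a log axis, with 1 point per calf and a bar at each group's median, ordered by mean level. Levels run from GSTA1, with a mean of 1762 TPM, down to SULT1C3 at about 1 TPM, and the points of CON and DCLI calves overlap for every gene.

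The cytosolic GSTs made up 57.3% of the summed phase II TPM across CON calves (SD 5.54) and 48.9% across DCLI calves (SD 5.33, n = 7 each). Of the same summed phase II TPM, the alpha class GSTs alone held 38.6% across CON calves (SD 7.44) and 27.5% across DCLI calves (SD 5.33). SULTs held 24.1% across CON calves (SD 3.66) and 29.3% across DCLI calves (SD 4.44). UGTs held 7.11% and 8.64%, and MGSTs 8.11% and 9.06%. These shares add up to a fixed total, so a lower share of one class raises the others. In TPM, the SULT sum was 1736 across CON calves (SD 206.5) and 1796 across DCLI calves (SD 270), and the UGT sum was 508.7 (SD 97.5) and 539 (SD 166). Both sums differed by less than the spread between calves. The UGT sums and the class shares cover only genes with a UGT symbol. Genes without one that lie between UGT2B10 and UGT2A1 are left out. Of these, MGC152010 alone had 393.6 TPM across CON calves and 459 TPM across DCLI calves. Whether they encode UGTs was not tested.

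**Figure D2:**
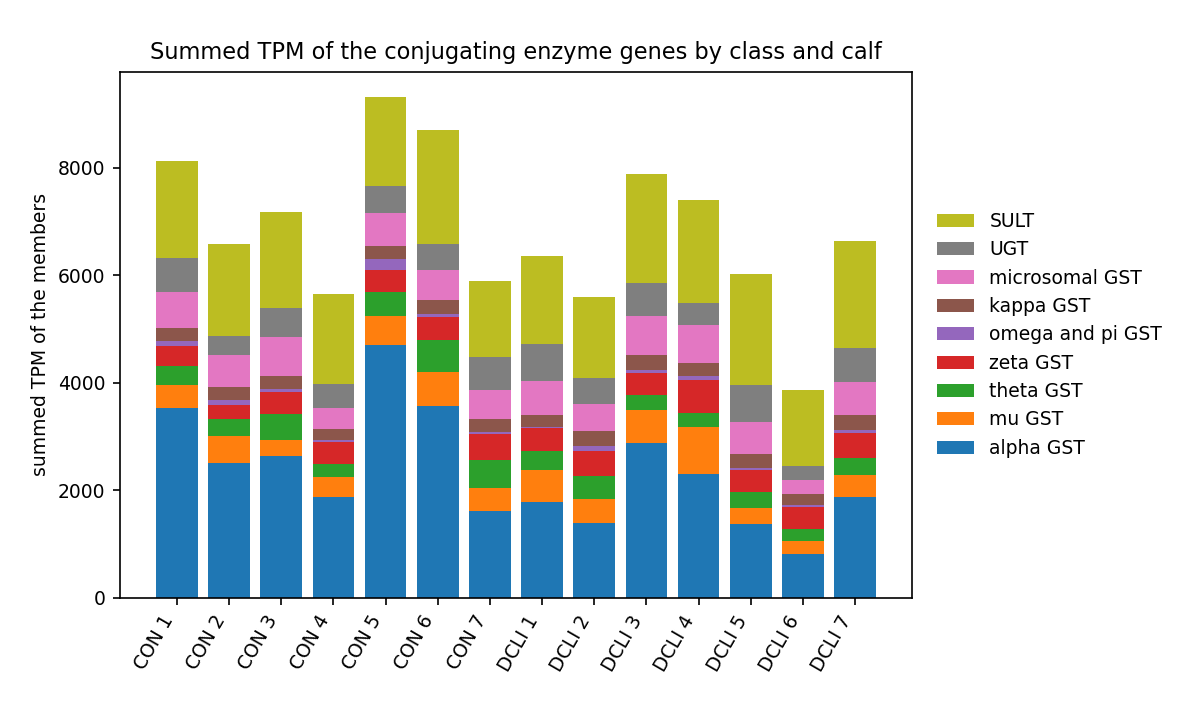
Summed TPM of each enzyme class in every calf, with 1 stacked bar per calf from 0 and the groups side by side. The alpha class GSTs are the widest layer in CON calves, and the total is lowest in DCLI calf 6 at 3856 TPM and highest in CON calf 5 at 9315 TPM.

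In the comparison of DCLI with CON, 0 of the 29 phase II genes passed an adjusted p of 0.05 by limma, against a background of 0% (0 of 11905 genes). At the unadjusted level of 0.05, 3 genes passed, against 8.89% of all genes tested. They were GSTA2 and GSTA1, lower in DCLI (background 3.19%), and SULT1C4, higher in DCLI (background 5.7%). Of the 29 genes, 16 were lower, where 51.2% of all genes were, and 13 were higher, where 48.8% of all genes were. Their median log2 fold change was -0.03, beside -0.01 over all genes. Without DCLI calf 6 the split was 17 higher and 12 lower, with a median of 0.10. Over all genes tested the split was then 6309 higher and 5596 lower, with a median of 0.01. A difference of 0.5 or more in either direction on the log2 scale was found in 10 of the 29, where 4.39% of all genes reached it. Of these 10, 7 were lower (background 2.58%) and 3 higher (background 1.81%).

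The phase II genes also varied more between calves than most genes. Their median coefficient of variation over the 14 calves was 45.5%, from 10.1% to 105%, beside 20.9% for all genes tested. Among genes with a mean of at least 10 TPM the medians were 36.7% for 25 phase II genes and 18.2% for 5789 genes. For 0 of the 29 genes were the groups separated without overlap, which was so for 0.0672% of all genes.

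**Figure D3:**
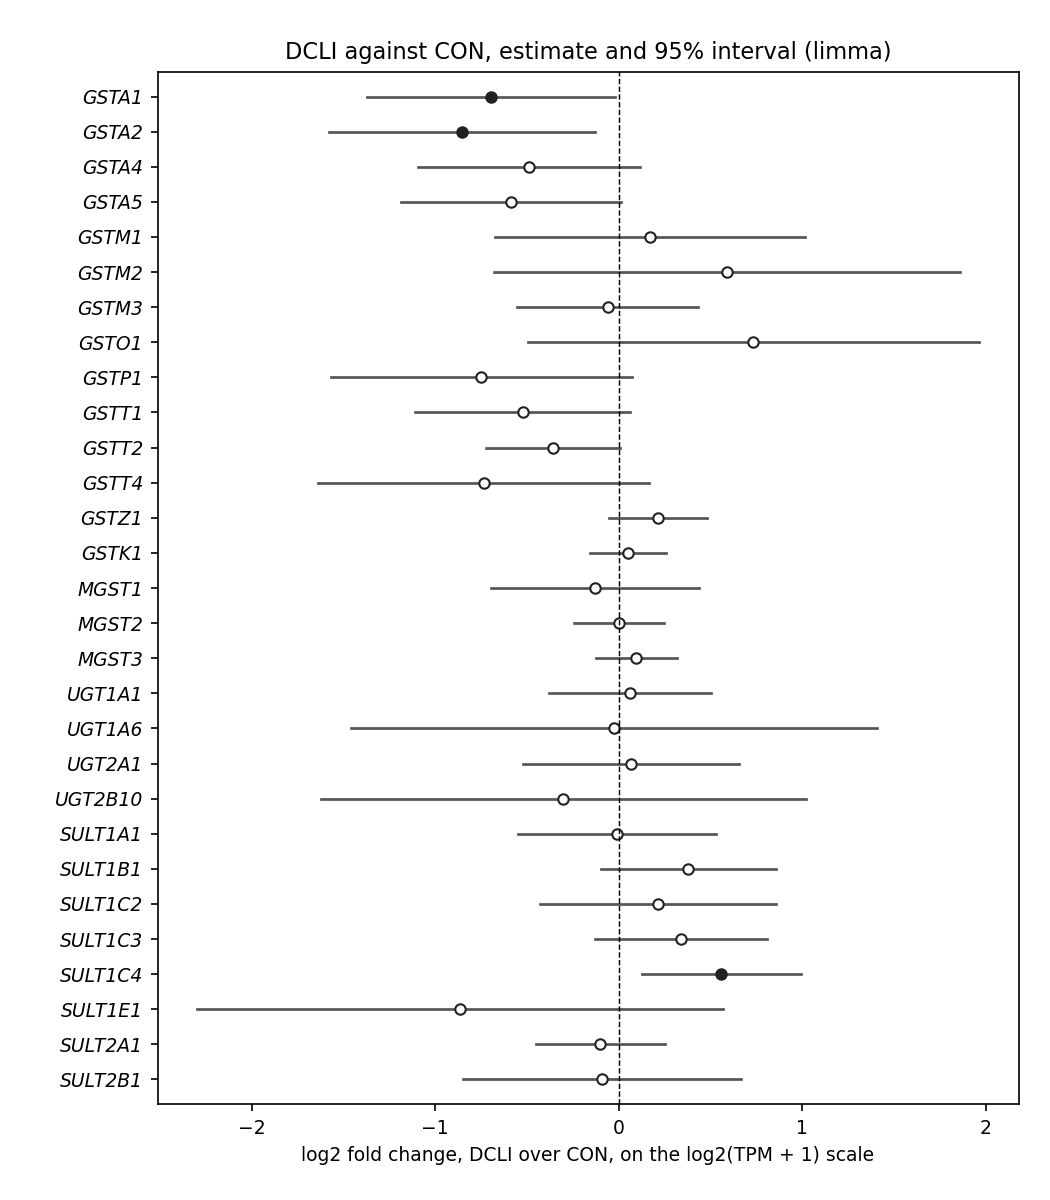
Log2 fold change of DCLI over CON on the log2(TPM + 1) scale for each tested phase II gene, grouped by class, with the 95% interval from limma and filled points at an unadjusted p under 0.05. All 4 alpha and all 3 theta class genes lie below 0 and most intervals span 0. The intervals of GSTA1 and GSTA2 end below 0 and that of SULT1C4 starts above it.

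The alpha class GSTs, the main glutathione transferases of hepatocytes, stood lower in DCLI calves. All 4 tested members were lower (background 51.2%), with a median log2 fold change of -0.64. Genes of a class were measured in the same calves, so a count by direction within a class is not a count of independent results. DCLI calf 6, for example, was the lowest calf in GSTA1, GSTA2 and GSTA5. Without DCLI calf 6 all 4 genes were still lower, where 5596 of 11905 genes were, with a median of -0.48. Without CON calf 5 the median was -0.53. The summed level of the class was 1606 TPM in the lowest, 2638 in the median and 4704 in the highest CON calf, and 804.6, 1779 and 2885 TPM in DCLI. The groups overlapped. Without DCLI calf 6 the DCLI mean was 1935 TPM (SD 578, n = 6), and without CON calf 5 the CON mean was 2617 TPM (SD 814.4, n = 6).

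GSTA1 had 914.5 TPM in the lowest, 2067 in the median and 3946 in the highest CON calf, and 615.8, 1438 and 2434 TPM in DCLI. Its means were 2180 TPM across CON calves (SD 964.1) and 1344 TPM across DCLI calves (SD 602), which put the log2 fold change at -0.70 ± 0.32 (SE, 7 calves each, limma adjusted p 0.551). In 6 of 7 DCLI calves GSTA1 lay below the control median, and DCLI calves 2 and 6 lay below every control.

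GSTA2, a close relative of GSTA1 with overlapping substrates, ran from 247 through a median of 470.3 to 1027 TPM in CON, and from 92.3 through 305.7 to 456.1 TPM in DCLI. The log2 fold change was -0.86 ± 0.34, with a limma adjusted p of 0.486. All 7 DCLI calves lay below the control median, and all but DCLI calves 1 and 6 lay inside the control range. GSTA1 and GSTA2 did not keep a fixed proportion: the ratio of GSTA1 to GSTA2 within a calf ran from 1.95 to 8.65, with a median of 4.54. How reads were split between these close relatives was not tested, so the ratio and the single levels carry that uncertainty.

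GSTA4, which takes the lipid peroxidation product 4-hydroxynonenal, had 92.0 TPM in the lowest, 167 in the median and 428.4 in the highest CON calf, and 94.6, 120.5 and 214 TPM in DCLI. In GSTA4 the log2 fold change was -0.49 ± 0.29 (SE, limma adjusted p 0.623). It was -0.28 without CON calf 1, the calf with 428.4 TPM. GSTA5 was a minor transcript, with 5.92 TPM across CON calves (SD 1.83) and 3.93 TPM across DCLI calves (SD 2.11), a log2 fold change of -0.59 ± 0.28 (limma adjusted p 0.5683). It was -0.34 without DCLI calf 6, the lowest calf at 0.61 TPM, and -0.31 on the log2(TPM + 5) scale.

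**Figure D4:**
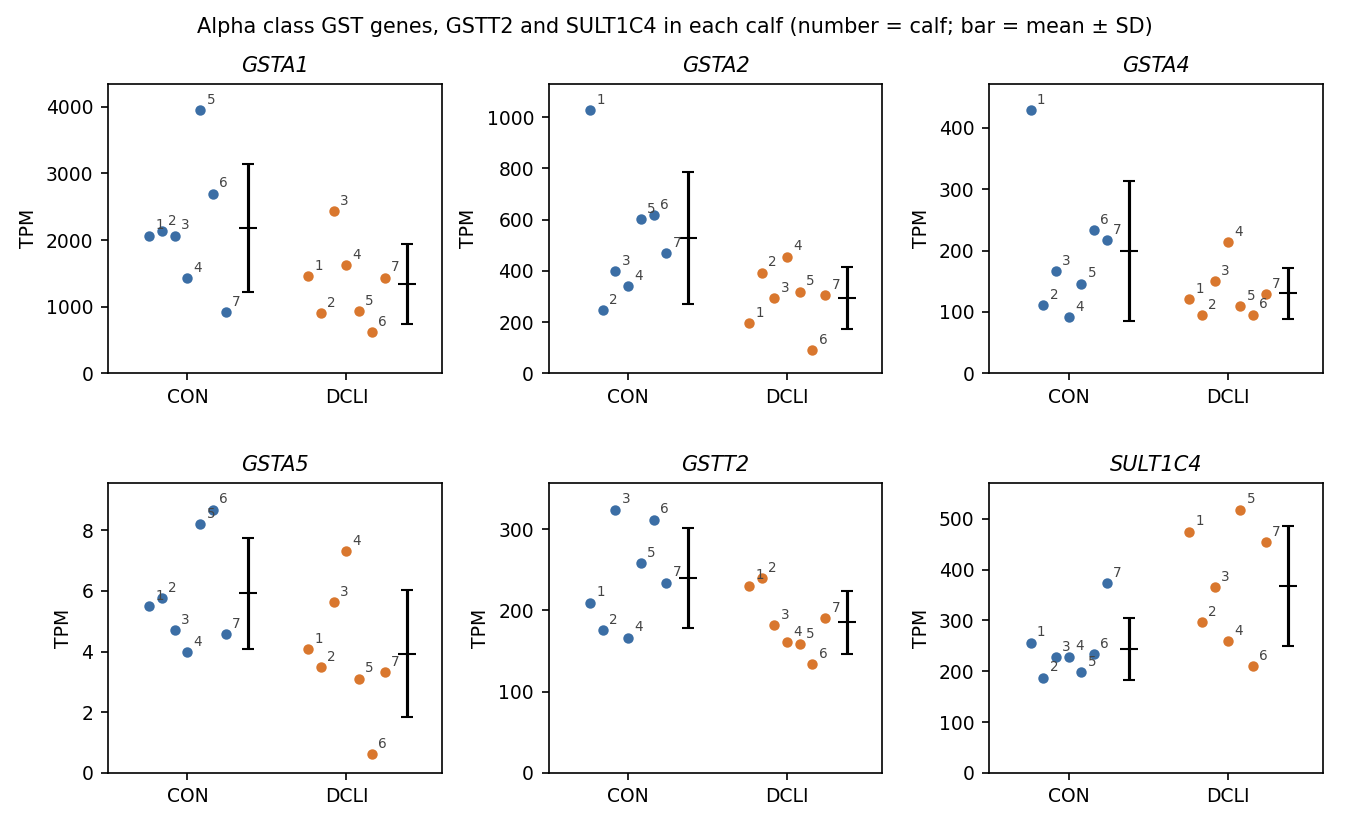
Levels of GSTA1, GSTA2, GSTA4, GSTA5, GSTT2 and SULT1C4 in TPM for each calf (numbered points), with CON and DCLI side by side and a bar for the group mean with its SD. GSTA2 has all 7 DCLI calves below the control median of 470.3 TPM, SULT1C4 has 6 of 7 above the control median of 228.8 TPM, and the groups overlap for each gene.

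The theta class, which handles small halogenated molecules and sulfate esters, also stood lower, with 3 of 3 genes lower (background 51.2%) and a median log2 fold change of -0.52, or -0.42 without DCLI calf 6. GSTT1 had 64.6 TPM in the lowest, 159.2 in the median and 282.6 in the highest CON calf, and 70.8, 120 and 164.8 TPM in DCLI, and GSTT1 in 6 of 7 DCLI calves was below the control median. DCLI stood at a log2 fold change of -0.52 ± 0.28 (SE, limma adjusted p 0.593). GSTT2 had 240 TPM across CON calves (SD 62.0) and 185.1 TPM across DCLI calves (SD 38.7), a log2 fold change of -0.36 ± 0.17 (limma adjusted p 0.567). GSTT4 was much less abundant, with 12.7 TPM across CON calves (SD 5.53) and 8.91 TPM across DCLI calves (SD 7.59). For GSTT4 the log2 fold change was -0.74 ± 0.43, or -0.45 on the log2(TPM + 5) scale, and -0.37 without DCLI calf 1, whose level of 0.73 TPM was the lowest.

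The mu class showed no common direction over all calves, with 2 of 3 genes higher in DCLI (background 48.8%) and a median log2 fold change of 0.17. Without DCLI calf 6 all 3 were higher, with a median of 0.20, where 6309 of 11905 genes were higher. For some mu genes 3 DCLI calves were high. GSTM3, its most abundant gene, had 333.8 TPM across CON calves (SD 89.7) and 326.3 TPM across DCLI calves (SD 106.8), a log2 fold change of -0.06 ± 0.23 with a 95% interval from -0.55 to 0.43 (limma adjusted p 0.956). GSTM2 had 12.7 TPM in the lowest, 18.4 in the median and 27.2 in the highest CON calf, and 1.91, 31.5 and 109.5 TPM in DCLI. DCLI calves 1, 3 and 4, at 80.5, 53.9 and 109.5 TPM, exceeded every control, while DCLI calf 6 was the lowest of all calves.

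The log2 fold change of GSTM2 was 0.59 ± 0.60 (SE, limma adjusted p 0.785). It was 1.15 without DCLI calf 6, 0.27 without DCLI calf 4 and 0.35 without DCLI calf 1. The proportion of GSTM3 to GSTM2 within a calf accordingly ran from 4.34 in DCLI calf 4 to 82.4 in DCLI calf 6.

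The symbol GSTM1 belonged to more than 1 gene identifier. The gene that the rule took, listed in RefSeq as LOC783879, had 104.4 TPM across CON calves (SD 46.2) and 126.1 TPM across DCLI calves (SD 80.9). A second gene, written with a prefix and therefore outside the rule, had 65.2 TPM in the lowest, 111.4 in the median and 132.6 in the highest CON calf, and 14.1, 187.5 and 380.2 TPM in DCLI. In this second gene DCLI calves 1, 3 and 4 again stood above every control, at 371.7, 274.8 and 380.2 TPM, and DCLI calf 6 was again the lowest. On the log2 scale the fold change was 0.56 ± 0.55 (SE, limma adjusted p 0.777), 1.11 without DCLI calf 6, 0.34 without DCLI calf 1 and 0.33 without DCLI calf 4. The mu genes are near copies of each other, and reads could be split between them, so the values of single mu genes are uncertain. The same holds for GSTP1. A second identifier of GSTP1, outside the rule, had 3.73 TPM across CON calves (SD 2.33) and 2.59 TPM across DCLI calves (SD 1.28). RefSeq gives the name GSTP1 to that second gene and lists the gene that the rule took as LOC281806.

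GSTP1, the pi class GST, is in humans a gene of bile duct epithelium more than of normal hepatocytes. It had 23.4 TPM in the lowest, 46.1 in the median and 181.8 in the highest CON calf, and 16.7, 26.5 and 65.2 TPM in DCLI. CON calf 5 held the highest value by far, and without it the CON mean was 42.0 TPM (SD 14.3, n = 6) in place of 62.0 TPM. GSTP1 had a log2 fold change of -0.75 ± 0.39 (SE, limma adjusted p 0.588), or -0.44 without CON calf 5. The sum of the 8 cholangiocyte markers was also highest in that calf, at 90.5 TPM. CON calves ranged from 15.5 TPM with a median of 51.5 TPM, and DCLI calves from 20.1 to 55.3 TPM with a median of 29.0 TPM. Of the 8 markers 5 passed the filter, 1 higher and 4 lower in DCLI, and none was at 0 in all libraries. Of these 5 markers, KRT7 and EPCAM were highest in CON calf 5, but KRT19 in CON calf 1, CLDN4 in CON calf 6 and SPP1 in CON calf 3. Their part in the difference was not tested.

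GSTO1, which reduces mixed disulfides and dehydroascorbate, had 18.2 TPM across CON calves (SD 10.9) and 23.4 TPM across DCLI calves (SD 8.37). CON calf 4 had 0.15 TPM, close to nothing, while the other 13 calves expressed it at 9.68 TPM or more. With that calf the log2 fold change was 0.73 ± 0.58 (SE, limma adjusted p 0.717) and without it 0.14. On the log2(TPM + 5) scale it was 0.44.

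GSTZ1 had 272.7 TPM in the lowest, 415.6 in the median and 483.8 in the highest CON calf, and 414.1, 425.1 and 603 TPM in DCLI. For GSTZ1 the log2 fold change was 0.21 ± 0.13 (SE, limma adjusted p 0.624), and 0.13 without CON calf 2, the lowest calf. In 6 of 7 DCLI calves GSTZ1 lay above the control median, by little except in DCLI calf 4. GSTK1, the kappa class enzyme of mitochondria and peroxisomes, was the steadiest of all phase II genes, with 238.9 TPM across CON calves (SD 19.5), 248.2 TPM across DCLI calves (SD 29.6) and a coefficient of variation of 10.1%. For GSTK1 the log2 fold change was 0.05 ± 0.10 (SE), with a 95% interval from -0.16 to 0.26. It was 0.0069 without CON calf 4 and 0.10 without DCLI calf 6.

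The MGSTs, membrane proteins that act on lipid hydroperoxides and on leukotrienes, differed by less than the spread between calves. MGST1 had 255 TPM in the lowest, 476.5 in the median and 580.6 in the highest CON calf, and 149.3, 465.7 and 592.7 TPM in DCLI. MGST1 had a log2 fold change of -0.13 ± 0.27 (SE, limma adjusted p 0.909), and it turned to 0.11 without DCLI calf 6, the lowest calf. MGST3 had 85.4 TPM across CON calves (SD 11.3) and 91.2 TPM across DCLI calves (SD 9.70), a log2 fold change of 0.10 ± 0.10, which was 0.047 without CON calf 5 and 0.16 without DCLI calf 6. MGST2, which can make leukotriene C4, had 47.5 TPM across CON calves (SD 4.24) and 48.0 TPM across DCLI calves (SD 9.03).

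Of the UGTs, UGT1A1 carried most of the signal under the rule. It had 288.6 TPM in the lowest, 418.9 in the median and 524.1 in the highest CON calf, and 234.9, 511 and 572.7 TPM in DCLI. The log2 fold change was 0.06 ± 0.21 (SE, limma adjusted p 0.947), with a 95% interval from -0.38 to 0.50. Direction was not settled for UGT1A1, since the value ran from -0.021 to 0.20 as single calves were left out.

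UGT1A6, which conjugates small phenols and overlaps UGT1A1 in the RefSeq annotation, had 1.12 TPM in the lowest, 12.01 in the median and 81.5 in the highest CON calf, and 0.88, 17.6 and 21.0 TPM in DCLI. The high value was again that of CON calf 5, and without it the CON mean was 11.7 TPM (SD 8.27, n = 6). The ratio of UGT1A1 to UGT1A6 within a calf ran from 4.39 in CON calf 5 to 324.6 in CON calf 4. In mammals the transcripts of the UGT1A locus share exons, so the split between both symbols is uncertain.

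UGT2A1 had 38.3 TPM across CON calves (SD 10.7) and 42.9 TPM across DCLI calves (SD 18.8), a log2 fold change of 0.07 ± 0.28 (SE, limma adjusted p 0.960). UGT2B10 had 33.2 TPM across CON calves (SD 16.2) and 34.6 TPM across DCLI calves (SD 24.7). Its log2 fold change was -0.30 ± 0.62 (SE, limma adjusted p 0.909), opposite in direction to the means. The lowest value of UGT2B10, 2.20 TPM, was that of DCLI calf 3. In that calf the ratio of UGT2A1 to UGT2B10 was 31.2, where the lowest ratio of all calves was 0.526.

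Between UGT2B10 and UGT2A1 in the RefSeq gene order lie genes without a UGT symbol that the rule did not take. Of these, MGC152010 had 393.6 TPM across CON calves (SD 52.9) and 459 TPM across DCLI calves (SD 84.1), more than 10 times the level of either named UGT2 gene. LOC781988 had 265.3 and 334.4 TPM, LOC530553 65.2 and 84.0 TPM, LOC100296421 50.8 and 48.3 TPM, and LOC540544 8.62 and 14.3 TPM in CON and DCLI. The UGT sums and the class shares given here leave these genes out.

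The sulfotransferases were split, with 4 of 8 tested genes higher and 4 lower in DCLI. The even split did not hold when libraries were rescaled without the 20 most abundant genes, where it was 5 and 3. SULT1A1, which sulfates phenols and catechols, had 371.6 TPM in the lowest, 734 in the median and 946 in the highest CON calf, and 391.5, 737.1 and 1017 TPM in DCLI. SULT1A1 had a log2 fold change of -0.01 ± 0.25 (SE), with a 95% interval from -0.55 to 0.53 and a sign that depended on the scaling and on single calves. SULT2A1, which sulfates dehydroepiandrosterone and bile acids, had 501.2, 672.2 and 937.7 TPM in CON and 416.1, 695.3 and 752.4 TPM in DCLI, as lowest, median and highest. Its log2 fold change was -0.10 ± 0.17 (SE, limma adjusted p 0.876), and it ran from -0.17 without CON calf 3 to -0.0014 without DCLI calf 6.

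SULT1C4 was the phase II gene of lowest unadjusted p. It had 187.3 TPM in the lowest, 228.8 in the median and 373.1 in the highest CON calf, and 209.5, 366.1 and 518.2 TPM in DCLI. The log2 fold change was 0.56 ± 0.20 with a 95% interval from 0.12 to 0.99 (limma unadjusted p 0.0150, adjusted p 0.456). In 6 of 7 DCLI calves SULT1C4 lay above the control median. A two-sided exact permutation test, which enumerated 3432 ways to assign the calves, gave an unadjusted p of 0.0297. In human tissue SULT1C4 is best known from fetal life. A second identifier of the same symbol, outside the rule, was close to absent at 0.068 TPM. RefSeq gives the name SULT1C4 to that second gene and lists the gene described here as LOC783020. Which of them corresponds to the human gene was not tested.

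SULT1B1, which sulfates thyroid hormones, had 21.3 TPM in the lowest, 44.8 in the median and 84.6 in the highest CON calf, and 48.6, 56.3 and 69.7 TPM in DCLI. All 7 DCLI calves lay above the control median and inside the control range. The DCLI calves lay closer together, with an SD of 7.11 TPM against 21.2 TPM in CON; this difference in spread was not tested. SULT1B1 had a log2 fold change of 0.38 ± 0.22 (SE, limma adjusted p 0.626), and 0.21 without CON calf 2, the lowest calf.

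SULT1C3 stayed near the filter, at 1.04 TPM across CON calves (SD 0.71) and 1.56 TPM across DCLI calves (SD 0.84). Its log2 fold change was 0.34 ± 0.22 on the log2(TPM + 1) scale, 0.64 with a pseudocount of 0.1 and 0.12 with a pseudocount of 5, and 0.21 without DCLI calf 1. SULT1C2 had 6.94 TPM across CON calves (SD 4.73) and 7.36 TPM across DCLI calves (SD 2.54).

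SULT1E1, the estrogen sulfotransferase, varied widely, with 51.0 times as much in the highest calf as in the lowest. It had 21.8 TPM in the lowest, 47.9 in the median and 155.1 in the highest CON calf, and 3.68, 37.8 and 187.8 TPM in DCLI. The high calves were CON calves 4 and 6, at 155.0 and 155.1 TPM, and DCLI calf 6, and the lowest were DCLI calves 5 and 7, at 3.68 and 11.1 TPM. SULT1E1 was the single phase II gene of which DCLI calf 6 held the highest value. SULT1E1 had a log2 fold change of -0.87 ± 0.68 (SE, limma adjusted p 0.717), with a 95% interval from -2.30 to 0.57. It was -1.32 without DCLI calf 6, where the DCLI mean was 25.7 TPM (SD 15.4, n = 6), and -0.43 without DCLI calf 5.

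Seen by calf, the same few libraries set the extremes of many phase II genes. DCLI calf 6 was the lowest of the 14 calves in 13 of the 29 genes, 44.8%, where it was lowest in 15.3% of all genes tested. Its level was below the median of the 14 calves in 23 of the 29 genes, at a median of 0.67 of it. Its hepatocyte marker sum of 36890 TPM was likewise the lowest, beside a DCLI median of 87230 TPM and a CON range from 55340 to 95840 TPM. That sum was mostly ALB, at 20420 TPM, and the markers did not all go 1 way. ALB, TTR, SERPINA1, F2 and CYP2E1 were lowest in this calf, but APOA1 was highest in it, at 5897 TPM. CPS1, at 697.6 TPM, and TAT, at 321.8 TPM, lay inside the control range. The part of these features in its phase II levels was not tested.

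CON calf 2 was the lowest in 6 genes, GSTZ1, SULT1C4, SULT1B1, SULT1C2, SULT2B1 and SULT1C3, and in 5.31% of all genes tested. CON calf 5 was the highest in GSTA1, SULT2A1, GSTP1 and UGT1A6, and in 3.19% of all genes. DCLI calf 4 was the highest in SULT1A1, GSTZ1, GSTM3, GSTM1 and GSTM2, and in 6.24% of all genes.

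**Figure D5:**
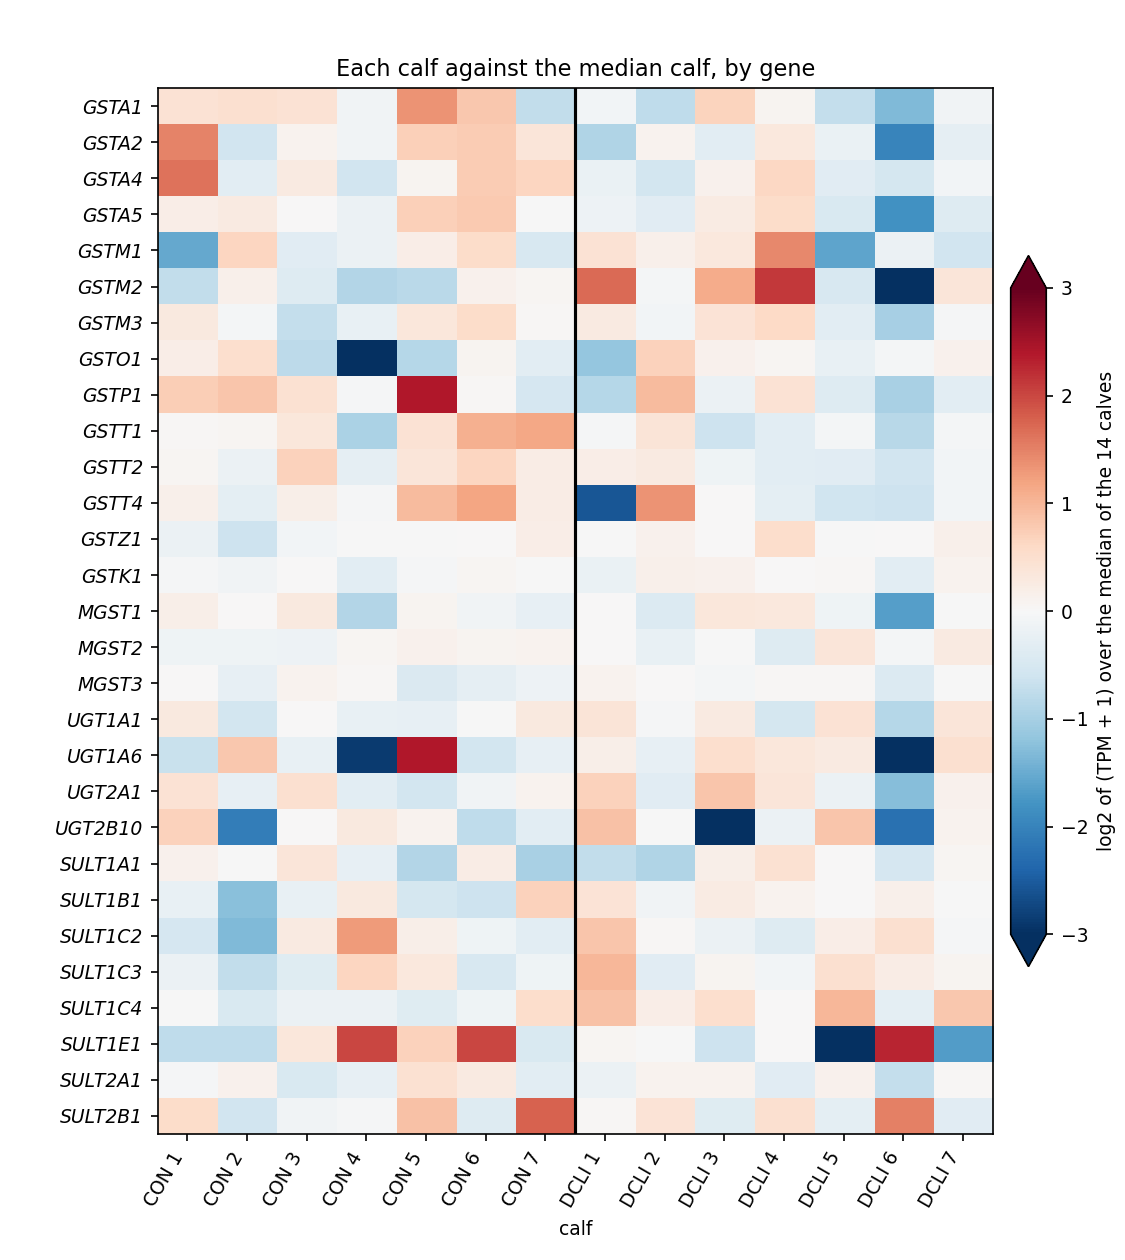
Heat map of each tested phase II gene (rows, grouped by class) in each calf (columns, CON then DCLI), coloured by log2(TPM + 1) minus the median of the gene over the 14 calves. The column of DCLI calf 6 is low for most genes and high for SULT1E1 and SULT2B1, and CON calf 5 is high for GSTP1 and UGT1A6.

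Of the 31 genes, 22 have another member close by in the RefSeq gene order of assembly ARS-UCD2.0, within 10 coding genes, in 7 groups. The 5 GSTA genes are adjacent, in the order GSTA2, GSTA1, GSTA5, GSTA3 and GSTA4. Neighbours did not share 1 direction in every group. The tested GSTA and GSTT genes were lower throughout, whereas UGT2B10, UGT2A1, SULT1B1 and SULT1E1, which lie together, included SULT1B1, with a log2 fold change of 0.38, beside SULT1E1, with -0.87. The 3 SULT1C genes are neighbours too, and SULT1C4 had 366.1 TPM in the median DCLI calf, where SULT1C2 had 6.47 TPM and SULT1C3 1.26 TPM.

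The table splits genes into RefSeq transcripts, and such splits are estimates where transcripts share most of their sequence. Of the 25 phase II genes with a mean of at least 10 TPM, 16 had more than 1 transcript listed, and in 9 of these the leading transcript held over 85% of the gene. The leading transcript of GSTA1 held 98.6%. SULT1A1 had the most, with 11 transcripts, of which the leading one held 58.8%, and in GSTZ1 the leading one of 10 held 38.4%.

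The proportions of a few genes leaned apart between the groups, which is given as a description without a test. The leading transcript of SULT1B1 held 78.8% of the gene across CON calves (SD 10.5) and 63.5% across DCLI calves (SD 10.3, n = 7 each), from 62.8% to 88.0% and from 50.7% to 78.6%. Its other main transcript held 19.7% and 35.9%. The leading transcript of SULT1C4 held 55.0% across CON calves (SD 4.45) and 62.0% across DCLI calves (SD 3.63), and that of SULT1A1 56.7% (SD 3.23) and 61.3% (SD 3.54). The ranges of the groups overlapped in all 3.

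Genes that supply the donor molecules and handle the conjugates were taken from 8 lists, in which 0 genes passed the adjusted threshold (background 0%). The list for UDP-glucuronic acid, the donor of the UGTs, had 5 of 5 genes higher in DCLI (background 48.8%), a median log2 fold change of 0.47, and 2 at an unadjusted p under 0.05 (background 8.89%). SLC35D1, which carries UDP-glucuronic acid into the endoplasmic reticulum, had 3.60 TPM across CON calves (SD 1.20) and 6.60 TPM across DCLI calves (SD 1.69). Its log2 fold change was 0.74 ± 0.18 (SE, limma adjusted p 0.365), and 0.43 on the log2(TPM + 5) scale. UGP2, which makes UDP-glucose, had 252.2 TPM across CON calves (SD 117.4) and 383.8 TPM across DCLI calves (SD 172.1). GALT, of galactose metabolism, had 39.2 and 53.0 TPM. The summed level of the list ran from 288.2 to 600.5 TPM in CON and from 344.4 to 895.6 TPM in DCLI, highest in DCLI calf 6.

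For the sulfate donor PAPS, 5 of 7 genes were higher in DCLI, 2 were lower, and the median log2 fold change was 0.05. PAPSS2, which makes the donor, had 62.5 TPM across CON calves (SD 17.7) and 98.5 TPM across DCLI calves (SD 70.4), with 251.5 TPM in DCLI calf 6. PAPSS2 had a log2 fold change of 0.47 ± 0.30 (SE), and 0.20 without that calf. In glutathione synthesis and recycling 6 of 11 genes were higher and 5 lower, with a median of 0.07. GSS, glutathione synthetase, had 11.4 TPM across CON calves (SD 0.80) and 14.7 TPM across DCLI calves (SD 3.51). GGCT, of the same list, had 5.97 and 4.02 TPM.

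Conjugating enzymes of other families held the largest difference among these lists. INMT, an indolethylamine and thioether methyltransferase, had 50.1 TPM across CON calves (SD 48.3) and 209.7 TPM across DCLI calves (SD 196.1), a log2 fold change of 1.96 ± 0.54 (SE, limma adjusted p 0.402). AS3MT, arsenite methyltransferase, had 42.7 TPM across CON calves (SD 6.63) and 58.8 TPM across DCLI calves (SD 8.73). GLYAT, which conjugates benzoic acid with glycine, had 781.4 TPM across CON calves (SD 172.1) and 562.9 TPM across DCLI calves (SD 108.2), a log2 fold change of -0.46 ± 0.18 (limma adjusted p 0.479). In this list 6 of 9 genes were higher and 3 lower.

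Among relatives outside the rule 5 of 7 genes were higher, with UGT3A2, a glycosyltransferase that uses other sugar donors, at 24.2 TPM across CON calves (SD 8.93) and 36.2 TPM across DCLI calves (SD 7.29), a log2 fold change of 0.60 ± 0.19 (limma adjusted p 0.420). CLIC4, a chloride channel protein of the GST fold, had 25.4 and 33.1 TPM.

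Among regulators of these genes 8 of 10 were higher in DCLI, 2 were lower, and the median log2 fold change was 0.18. NR1I2, the pregnane X receptor, had 49.8 TPM in CON and 73.9 TPM in DCLI (0.57 ± 0.17, SE, on the log2 scale). HNF4A, a hepatocyte transcription factor and the most abundant of the list, had 128.2 and 130.3 TPM. Exporters were even, with 3 of 6 genes higher and 3 lower, among them ABCC6 at 76.3 TPM across CON calves (SD 33.7) and 105.8 TPM across DCLI calves (SD 29.9). Enzymes that remove the conjugated group were higher in 2 of 7 cases and lower in 5. GUSB, the lysosomal beta-glucuronidase, had 112.4 TPM across CON calves (SD 37.5) and 121.6 TPM across DCLI calves (SD 72.1). DCLI calf 6 had 284.2 TPM of it, and the other DCLI calves 83.0 to 105.7 TPM.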

How the data were processed

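The authors deposited 1 table of TPM for 49721 RefSeq transcripts of 17469 genes in 14 liver libraries. Reads with over 5% unknown bases, or with over 20% of bases under a quality score of 15, were dropped with SOAPnuke 1.5.6, per the labels' protocols. RSEM 1.3.1 and DESeq2 1.4.5 are named in the submitters' processing notes. Which aligner and which build were used is not given in the sources used here. TPM keeps no depth, so precision from counting is unknown. It is also a share, so an abundant gene lowers all others.

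TPM was summed per gene. Of the 31 symbols, 28 matched the RefSeq table of ARS-UCD2.0, used for names and gene order only. GSTM1, GSTP1 and SULT1C4 did not match. From the same RefSeq table, 8 symbols turned into dates were restored. The 11905 genes that reached 1 TPM in 7 or more libraries were tested as log2(TPM + 1), which understates changes of low genes. DCLI was compared with CON by limma 3.58.1 under R 4.3.3 (mean-variance trend, two-sided, no covariate), with Benjamini-Hochberg adjustment over all genes and a threshold of 0.05. The step was tested on simulated data.

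The 12 genes of highest mean TPM, the 5 per direction of lowest unadjusted p and the most abundant gene of each family were described in full. Up to 3 genes of lowest unadjusted p and the most abundant gene were taken from each pathway list. Of these, 1 gene is not reported here. GSTM2, GSTT1, GSTT4, MGST3 and SULT1E1, the second gene copies and the unnamed UGT2 neighbours were singled out after their values were seen. The members and lists were chosen with earlier results of these data known, so no p over a list is given. Alternatives were other pseudocounts, filters, scalings and tests, sample weights, the replicate number as a block, and leaving out each calf. No sequences were used. Plots were made in matplotlib 3.10.9.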

Additional observations from a re-analysis of the deposited data

Results flagged for a closer look

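A gap test within each group of 7 calves (Dixon's, at 95%) picked out 11 of 58 gene and group combinations in which the highest or lowest calf stood far from the next. About 1 in 20 would be picked out by chance if values were independent and normally distributed. The test was run on untransformed TPM, and the same calves recur across genes. It was not run over all genes, so the count cannot be read as particular to phase II genes. In DCLI, GSTZ1 was 603 TPM in calf 4 (next 465.7), SULT1E1 187.8 TPM in calf 6 (next 39.4), SULT2B1 5.87 TPM in calf 6 (next 2.4) and GSTT4 24.9 TPM in calf 2 (next 9.36). MGST3 was 70.5 TPM in DCLI calf 6, lower than the next at 89.7 TPM. In CON, GSTP1 was 181.8 TPM in calf 5 (next 59.8) and UGT1A6 81.5 TPM in the same calf (next 26.4). SULT1C4 was 373.1 TPM in CON calf 7 (next 256.3), and SULT2B1 7.25 TPM in that calf (next 3.47). GSTA4 was 428.4 TPM in CON calf 1 (next 233.6), and SULT1C2 16.7 TPM in CON calf 4 (next 7.9). DCLI calf 6 and CON calves 5 and 7 thus held 7 of the 11 values.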

How the results depend on the processing

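The count of phase II genes past the adjusted threshold was 0 under every alternative except sample weights, where it was 2, SULT1C4 (0.80, limma adjusted p 0.0170) and SULT1E1 (-2.13, limma adjusted p 0.0331). The count over all genes was 1388 with sample weights (11.7% of genes), 1 with the replicate block, and 0 to 12 with 1 calf left out, 12 without CON calf 7. Sample weights gave DCLI calf 7 a weight of 5.93, and 0.336 to 2.0 to the others. With the replicate block 0 phase II genes were called. Calves of the same number deviated together (correlation over 0.1) in 4 of 7 pairs, and 2 of 7 correlated best with their own number, so the numbers were not taken to pair calves.

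The direction turned in 6 members close to 0. SULT1A1 was 0.0087 when rescaled without the 20 most abundant genes, 0.12 with sample weights and -0.14 to 0.11 with 1 calf left out. With sample weights SULT2A1 was 0.069, MGST1 0.051 and GSTM3 0.048. With 1 calf left out MGST1 ran from -0.26 to 0.11, UGT1A1 from -0.021 to 0.20, GSTM3 from -0.18 to 0.10 and UGT2A1 from -0.069 to 0.28. The other 17 members tried kept their direction in each alternative that gave a value. Of these alternatives, the other filters, the replicate block and the permutation test leave the fold change as it is. GSTA5 and SULT1C3 had no value at a mean of at least 5 TPM. The cause of these shifts was not tested. With unknown depth, values near 1 TPM are the least certain.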
